A study of Homo sapiens with 6 samples.

Results

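Axon guidance ligands and receptors are the secreted and membrane-bound proteins that steer growing nerve fibres and migrating cells. They were taken here as the gene symbols of the semaphorin (SEMA3 to SEMA7), plexin, neuropilin, Eph, ephrin, SLIT, ROBO, netrin, UNC5 and DCC families, without hyphenated symbols such as antisense genes. The choice used symbols alone and no measured value, but was made with earlier results of these data known. It gave 71 genes of the 26372 in the deposited table, 37 of them ligands and 34 receptors.

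The RNA came from SH-SY5Y, a human neuroblastoma line of sympathetic, neural crest-related origin. The 3 knockdown libraries (titled shT2) were of cells carrying a lentiviral short hairpin RNA (shRNA) against TDP-43, selected and kept in puromycin. The 3 control libraries (titled shNC3) were of cells carrying a lentiviral shNC hairpin. Each arm has one name in the labels, which do not say whether it is a clone or a pool, or whether its 3 libraries are separate cultures. The p-values therefore cover the spread between these libraries alone, and that spread may be technical. TDP-43 is the product of TARDBP, a mostly nuclear protein that binds RNA and is lost from the nucleus of neurons in amyotrophic lateral sclerosis. The design asks how RNA levels differ in cells with a lasting shortage of it.

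Guidance proteins work as ligand and receptor pairs. Secreted class 3 semaphorins bind neuropilins, which signal through plexins of the A class and repel many axons, while most membrane semaphorins bind plexins directly. SLITs bind ROBO receptors and repel. Netrins attract through DCC and repel through UNC5 receptors. Ephrins and Eph receptor kinases are both held in the membrane and signal at cell contacts, ephrin-A ligands being anchored by a lipid and ephrin-B ligands crossing the membrane. The same systems guide neural crest cells, from which the sympathetic lineage derives.

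Values are FPKM, fragments scaled for transcript length and for library size, so levels of different genes can be set side by side. Read counts are not part of the table and the absolute depth is unknown. Steps between low values put the relative depth at 52.6% to 94.4% of the deepest library in the knockdown and at 84.2% to 100% in the control. TARDBP itself averaged 21.2 ± 0.598 FPKM in the knockdown and 49.5 ± 1.49 FPKM in the control (SD, n = 3 each), and its log2 fold change was -1.19 (SE 0.045, limma adjusted p = 6.69e-08). A two-sided exact permutation test of TARDBP gave p = 0.1, which no arrangement of 3 and 3 libraries can go below. The libraries also differed in cell-state markers. The 16 mesenchymal markers listed summed to 798 to 815 FPKM in the knockdown and 2396 to 2437 FPKM in the control, with 3 higher, 12 lower and 1 not called. PRRX1 averaged 0.0157 FPKM in the knockdown and 68.6 FPKM in the control, and TWIST1 went the other way, at 294 FPKM in the knockdown and 110.8 FPKM in the control. The 16 noradrenergic markers summed to 1161 to 1294 FPKM in the knockdown and 616 to 629 FPKM in the control, with 10 higher, 2 lower and 2 not called among 14 tested. Among them DBH averaged 31.3 FPKM in the knockdown and 38.1 FPKM in the control, and TH was listed at 0 in all 6 libraries. The 10 Schwann and glial markers summed to 36.9 to 37.7 FPKM in the knockdown and 39.8 to 42.7 FPKM in the control, of which PMP22 averaged 28.3 FPKM in the knockdown and 38.2 FPKM in the control, with 2 higher and 1 lower among 3 tested and FOXD3 at 0 throughout. Of all genes tested 30.5% were higher and 35.9% lower. The marker sums are of the deposited values. Whole columns of these summed to 2.12e+06 to 2.45e+06 FPKM in the knockdown and 1.18e+06 to 1.23e+06 FPKM in the control. The part of the markers in any guidance result below was not tested. In RNA of whole cultures, fewer cells of a type and less RNA per cell cannot be told apart.

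Guidance genes moved in both directions, with some of the steepest falls and rises inside the same family. A test required an average of at least 1 FPKM across all libraries. Of the 71 genes 52 met this, while 19 did not, and 4 of those were listed at 0 throughout. Differences are on the log2(FPKM + 1) scale, where changes of low genes look smaller than they are, and a gene was called at a limma adjusted p under 0.05 over all 13434 genes tested. Of the 52, 22 rose (42.3%, against 30.5% of all genes tested), 20 fell (38.5%, against 35.9%) and 10 were not called. In either direction 42 were called (80.8%, against 66.3%), and in 43 the 3 knockdown and 3 control libraries had ranges that did not overlap (82.7%, against 70.8%). A rise of at least 2-fold was found for 7 and a fall of at least 2-fold for 8, where 3.31% and 7.95% of all genes tested did so. Some genes reach the filter through the higher group alone, so these shares are a description. The median log2 fold change of the 52 was 0.0046, beside -0.020 over all genes tested. Ligands and receptors differed in their counts, with 15 ligands higher and 8 lower of 29, and 7 receptors higher and 12 lower of 23. Their medians were 0.33 for ligands and -0.23 for receptors, and the difference between the roles was not tested. Directions depend in part on scaling. Giving every column of the table the same sum takes the median of all genes tested to -0.82, and is called equal-sum scaling below. With 6 small RNAs left out of those sums the median of all genes tested was -0.047. In that setting 22 guidance genes were called higher and 21 lower.

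**Figure D1:**
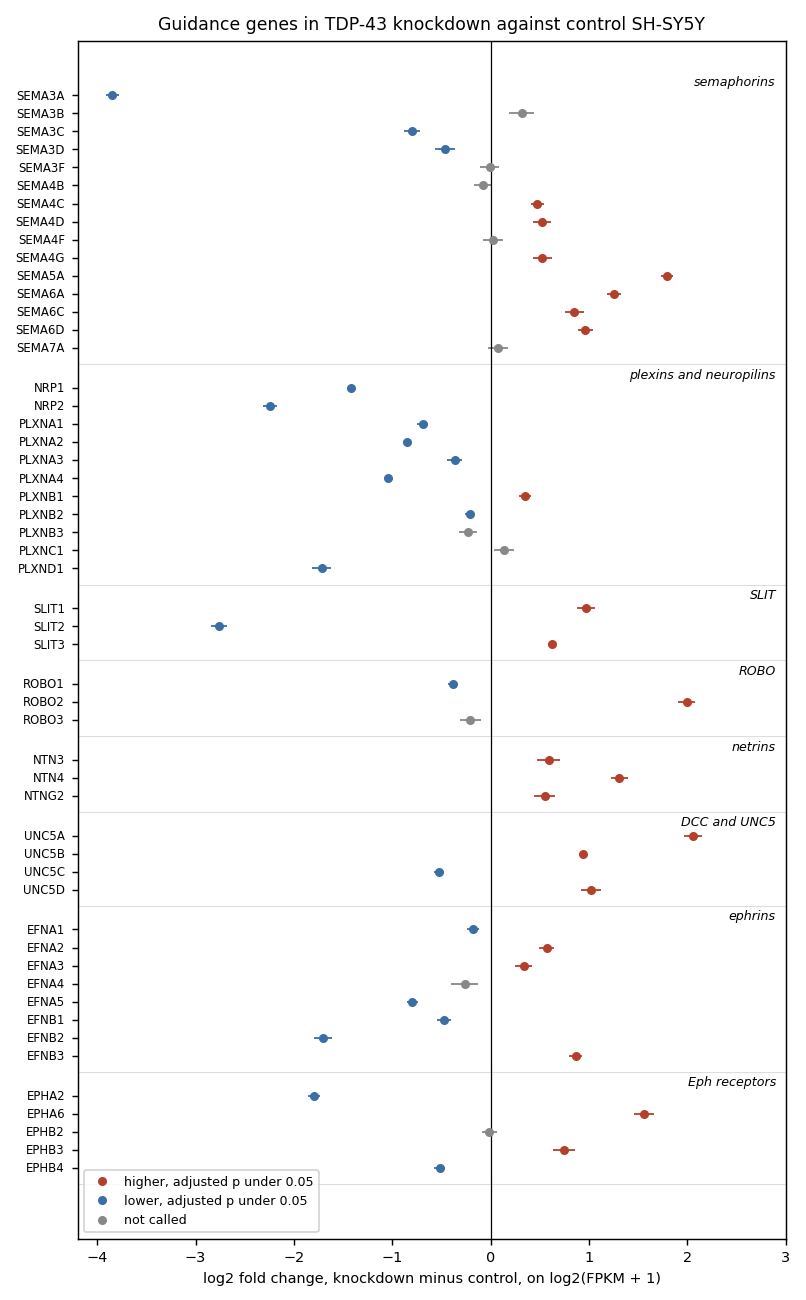
Log2 fold change, knockdown minus control, on the log2(FPKM + 1) scale (horizontal axis) for the 52 guidance genes tested, grouped by family; points are limma estimates, bars are their standard errors, and colour gives the call. Members of a family spread to both sides, from -3.85 for SEMA3A to 2.06 for UNC5A; under equal-sum scaling all values move down, and the risen SEMA4C, SEMA4D, SEMA4G, PLXNB1, SLIT3, EFNA2 and EFNA3 are negative.

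Of the secreted class 3 semaphorins 3 fell (60%, beside 35.9% of all genes tested) and 2 were not called among 5 tested. The largest fall was that of SEMA3A, a repellent of sympathetic and sensory axons (chromosome 7, 83955777 to 84492724, minus strand, GRCh38). SEMA3A stood at 0.647, 0.697 and 0.815 FPKM across the knockdown libraries, against 24.2, 23.3 and 23.7 FPKM across the control libraries. All knockdown values lay far below all control values, at 3.03% of the control mean, and the log2 fold change was -3.85 (SE 0.065, limma adjusted p = 6.02e-10). SEMA3C, a cue for neural crest cells in the developing heart, was the most abundant semaphorin of the control. It stood at 44.3, 38.8 and 49.7 FPKM across the knockdown libraries, against 78.4, 80.3 and 73.9 FPKM across the control libraries, and fell by 0.80 (SE 0.081, limma adjusted p = 3.51e-05). SEMA3D fell by 0.46, averaging 4.08 ± 0.682 FPKM in the knockdown and 5.97 ± 0.348 FPKM in the control (SD, n = 3 each, limma adjusted p = 0.00399). The other class 3 members were not called. SEMA3F, which acts through neuropilin-2, averaged 3.41 ± 0.352 FPKM in the knockdown and 3.45 ± 0.414 FPKM in the control, and its groups overlapped. SEMA3B averaged 1.40 ± 0.349 FPKM in the knockdown and 0.915 ± 0.0998 FPKM in the control, a log2 fold change of 0.31 that just missed the threshold (limma adjusted p = 0.0517). SEMA3E and SEMA3G were under the filter and stood in opposite order. SEMA3E was at 0.321, 0.341 and 0.306 FPKM in the knockdown and 0.520, 0.619 and 0.564 FPKM in the control. SEMA3G was at 0.230, 0.103 and 0.0849 FPKM in the knockdown and 0.0667, 0.0139 and 0.0634 FPKM in the control. Class 3 transcripts summed to 48.7 to 60.3 FPKM across the knockdown libraries and 108.8 to 114.9 FPKM across the control libraries. Within that sum SEMA3A held 1.20% to 1.43% in the knockdown and 20.3% to 21.8% in the control.

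Membrane semaphorins of classes 4 to 6 moved the other way. Of 9 tested, 7 rose (77.8%, beside 30.5% of all genes tested) and 2 were not called. Under equal-sum scaling, however, SEMA4C, SEMA4D and SEMA4G were negative and SEMA6C was not called. Those 3 class 4 members were there 0.46 to 0.60 above the median of all genes. SEMA5A, a membrane semaphorin with thrombospondin repeats (chromosome 5, 9035026 to 9546075, minus strand), had the largest rise among them. It stood at 64.7, 56.7 and 63.6 FPKM across the knockdown libraries, against 17.2, 17.2 and 16.7 FPKM across the control libraries, a difference of 1.79 (SE 0.057, limma adjusted p = 2.10e-08). SEMA5A was thus the most abundant semaphorin of the knockdown, in place of SEMA3C in the control. SEMA6A, a ligand of PLXNA2 and PLXNA4, stood at 10.3, 9.95 and 10.2 FPKM across the knockdown libraries, against 4.00, 3.71 and 3.37 FPKM across the control libraries, and rose by 1.25 (SE 0.069, limma adjusted p = 6.76e-07). SEMA6D, a ligand of PLXNA1, rose by 0.96, with 5.08, 5.07 and 5.49 FPKM in the knockdown and 2.03, 2.29 and 2.25 FPKM in the control (limma adjusted p = 5.50e-06). SEMA6C averaged 7.36 ± 0.628 FPKM in the knockdown and 3.65 ± 0.504 FPKM in the control. None of these 4 had overlapping groups.

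The class 4 rises were smaller. SEMA4C, SEMA4D and SEMA4G rose by 0.47, 0.52 and 0.53 on the log2 scale. SEMA4D, the ligand of plexin-B1, averaged 6.19 ± 0.558 FPKM in the knockdown and 4.01 ± 0.525 FPKM in the control (SD, n = 3 each). SEMA4C averaged 14.0 ± 1.15 FPKM in the knockdown and 9.82 ± 0.403 FPKM in the control, and SEMA4G averaged 5.85 ± 0.759 FPKM in the knockdown and 3.74 ± 0.216 FPKM in the control. SEMA4B, SEMA4F and the lipid-anchored SEMA7A were not called. SEMA4B averaged 6.49 ± 0.655 FPKM in the knockdown and 6.92 ± 0.541 FPKM in the control. SEMA4F averaged 3.00 ± 0.456 FPKM in the knockdown and 2.93 ± 0.229 FPKM in the control, and SEMA7A averaged 1.18 ± 0.149 FPKM in the knockdown and 1.07 ± 0.156 FPKM in the control. SEMA6B was under the filter, at 0.0231 to 0.137 FPKM in the knockdown and 0.0574 to 0.0804 FPKM in the control, with overlapping groups. Under the filter, SEMA4A stood at 0.655 to 1.02 FPKM in the knockdown and 0.34 to 0.50 FPKM in the control. SEMA5B stood at 0.245, 0.395 and 0.291 FPKM in the knockdown and 0.647, 0.671 and 0.645 FPKM in the control, opposite in order to its relative SEMA5A. Classes 4 to 6 summed to 120.3 to 123.1 FPKM across the knockdown libraries and 54.3 to 55.7 FPKM across the control libraries. With class 3 and SEMA7A added, the semaphorin sums overlapped, at 170.3 to 184.5 FPKM in the knockdown and 165 to 171 FPKM in the control. Under equal-sum scaling the knockdown total was 0.561 of the control total, while classes 4 to 6 stayed higher, at 1.18 times.

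Semaphorin receptors fell in most cases. Of 11 plexins and neuropilins, all of which passed the filter, 8 fell (72.7%, beside 35.9% of all genes tested), 1 rose and 2 were not called. Under equal-sum scaling all 11 were called lower, PLXNB1 and PLXNC1 with a change of sign. That scaling called 11689 of all 13434 genes tested lower. The neuropilins, which bind class 3 semaphorins and also vascular endothelial growth factor, both fell, NRP2 the most of the 11. NRP2 (chromosome 2, 205681990 to 205798133, plus strand) stood at 2.64, 3.01 and 3.11 FPKM across the knockdown libraries, against 17.8, 16.9 and 17.9 FPKM across the control libraries, a difference of -2.24 (SE 0.067, limma adjusted p = 1.51e-08). NRP1 stood at 21.7, 20.9 and 20.8 FPKM across the knockdown libraries, against 58.7, 57.7 and 58.2 FPKM across the control libraries, a difference of -1.42 (SE 0.040, limma adjusted p = 1.06e-08). The libraries of each arm lay close together for both.

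All 4 A-class plexins, the signalling partners of the neuropilins, fell, beside 35.9% of all genes tested. PLXNA4 stood at 23.8, 23.0 and 24.4 FPKM across the knockdown libraries, against 49.6, 50.2 and 50.1 FPKM across the control libraries (log2 difference -1.04, SE 0.042, limma adjusted p = 8.91e-08). PLXNA2 averaged 20.4 ± 0.398 FPKM in the knockdown and 37.6 ± 0.527 FPKM in the control, a difference of -0.85 (SD, n = 3 each, limma adjusted p = 3.20e-07). PLXNA1 fell by 0.69, with 11.0 ± 0.591 FPKM in the knockdown and 18.4 ± 0.482 FPKM in the control. PLXNA3 fell by 0.37, with 4.97 ± 0.184 FPKM in the knockdown and 6.71 ± 0.622 FPKM in the control. PLXND1, the receptor of SEMA3E, stood at 1.04, 1.57 and 1.46 FPKM across the knockdown libraries, against 6.80, 6.31 and 7.07 FPKM across the control libraries (log2 difference -1.72, SE 0.101, limma adjusted p = 9.97e-07).

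PLXNB1 was the member that rose, by 0.35, with 7.37 ± 0.217 FPKM in the knockdown and 5.57 ± 0.263 FPKM in the control (SD, n = 3 each, limma adjusted p = 0.00114). Its ligand SEMA4D rose as well, as given above. PLXNB2 fell by 0.21 (19.7 ± 0.618 FPKM in the knockdown, 23.0 ± 0.573 FPKM in the control), a call that was lost with quantile normalization (-0.066, limma adjusted p = 0.297). PLXNB3 averaged 1.29 ± 0.174 FPKM in the knockdown and 1.69 ± 0.0879 FPKM in the control and just missed the threshold (limma adjusted p = 0.0525). PLXNC1, the receptor of SEMA7A, averaged 2.79 ± 0.423 FPKM in the knockdown and 2.45 ± 0.213 FPKM in the control with overlapping groups. A-class plexins summed to 59.8 to 60.4 FPKM in the knockdown and 111.6 to 114.6 FPKM in the control, whereas B-class plexins summed to 27.7 to 29.1 FPKM in the knockdown and 29.9 to 31.0 FPKM in the control.

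**Figure D2:**
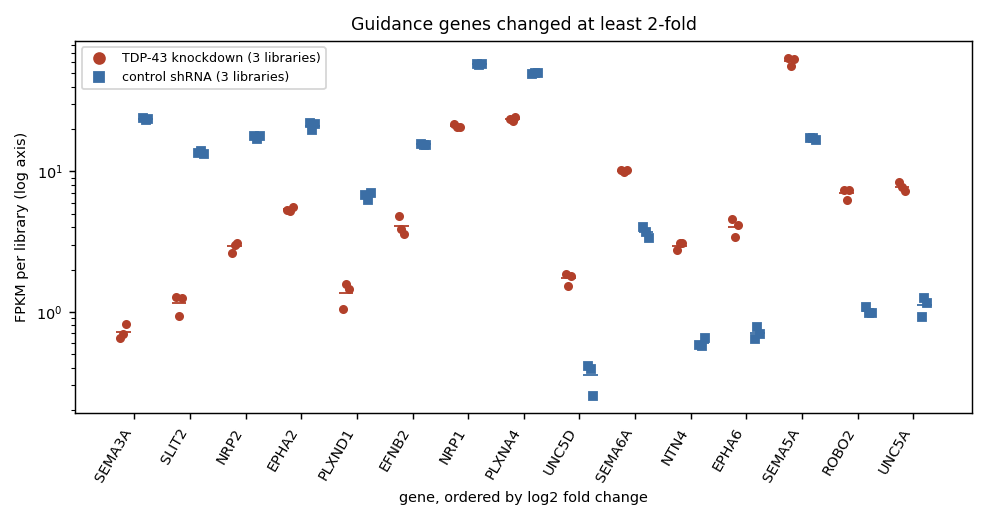
FPKM in each library (vertical log axis) of the 15 guidance genes that changed at least 2-fold on the log2(FPKM + 1) scale, ordered by log2 fold change; circles are the 3 knockdown libraries, squares the 3 control libraries and short lines their means. The 15 were picked by call and size of change in these same libraries, so groups that stand apart are no separate result. They run from SEMA3A (0.647 to 0.815 FPKM in the knockdown, 23.3 to 24.2 FPKM in the control) to UNC5A (7.20 to 8.41 FPKM in the knockdown, 0.921 to 1.26 FPKM in the control).

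SLIT ligands and ROBO receptors each held members that rose and members that fell. SLIT2 (chromosome 4, 20253260 to 20620561, plus strand), a midline repellent, stood at 1.26, 0.931 and 1.25 FPKM across the knockdown libraries, against 13.5, 13.9 and 13.2 FPKM across the control libraries. It held 8.50% of the control mean, with a log2 difference of -2.76 (SE 0.081, limma adjusted p = 1.31e-08). SLIT3, the most abundant ligand of this family, rose by 0.63, with 70.4, 70.9 and 68.3 FPKM across the knockdown libraries and 45.2, 43.8 and 45.8 FPKM across the control libraries (SE 0.040, limma adjusted p = 1.62e-06), but was negative under equal-sum scaling, there 0.56 above the median of all genes. SLIT1 rose by 0.97, with 2.55, 2.67 and 2.44 FPKM in the knockdown and 0.871, 0.665 and 0.917 FPKM in the control (limma adjusted p = 2.22e-05). Its exons overlap a read-through gene on the same strand, ARHGAP19-SLIT1, listed at 1.12 FPKM in the knockdown and 0.0171 FPKM in the control, so how reads were divided between them is uncertain. SLIT3 made up 94.9% to 95.2% of all SLIT FPKM in the knockdown and 75.0% to 76.4% in the control.

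Among the receptors, ROBO2 (chromosome 3, 75906695 to 77649964, plus strand) rose and ROBO1 fell. ROBO2 stood at 7.40, 6.28 and 7.41 FPKM across the knockdown libraries, against 1.09, 0.980 and 0.984 FPKM across the control libraries, 6.92 times the control mean (log2 difference 1.99, SE 0.085, limma adjusted p = 1.31e-07). ROBO1 stood at 19.4, 17.9 and 18.0 FPKM across the knockdown libraries, against 24.4, 24.6 and 24.0 FPKM across the control libraries, a fall of 0.38 (SE 0.050, limma adjusted p = 1.58e-04). ROBO3, which modifies the response to SLIT at the midline, averaged 1.29 ± 0.268 FPKM in the knockdown and 1.63 ± 0.126 FPKM in the control and was not called. ROBO4, known from endothelial cells, was under the filter at 0.0253, 0.0337 and 0.0746 FPKM in the knockdown and 0.364, 0.349 and 0.256 FPKM in the control. Summed over the family, ROBO transcripts overlapped between arms at 25.8 to 28.1 FPKM in the knockdown and 27.0 to 27.6 FPKM in the control on the deposited scale, but not under equal-sum scaling, where the knockdown sum was 0.525 of the control sum. ROBO2 held 24.4% to 27.9% of ROBO FPKM in the knockdown and 3.55% to 3.97% in the control.

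In the netrin system 3 of 4 UNC5 receptors rose on the deposited scale (75%, beside 30.5% of all genes tested). DCC, the attractive receptor, stood far lower in the knockdown than in the control. UNC5A (chromosome 5, 176810477 to 176880898, plus strand) had the largest rise of all guidance genes tested on this scale. It stood at 8.41, 7.72 and 7.20 FPKM across the knockdown libraries, against 0.921, 1.26 and 1.16 FPKM across the control libraries, 6.99 times the control mean (log2 difference 2.06, SE 0.091, limma adjusted p = 1.65e-07). UNC5B, a dependence receptor that is also a p53 target, was the most abundant guidance gene of the knockdown. Its values were 72.7, 76.5 and 73.7 FPKM across the knockdown libraries and 37.2, 38.9 and 38.5 FPKM across the control libraries, a rise of 0.94 (SE 0.041, limma adjusted p = 1.45e-07) that was not called under equal-sum scaling (0.056, limma adjusted p = 0.467). UNC5D rose by 1.02, with 1.87, 1.53 and 1.81 FPKM in the knockdown and 0.412, 0.394 and 0.250 FPKM in the control (limma adjusted p = 3.27e-05). UNC5C went the other way, at 23.3, 21.8 and 24.3 FPKM across the knockdown libraries and 34.0, 34.7 and 32.7 FPKM across the control libraries, a fall of 0.53 (SE 0.053, limma adjusted p = 3.12e-05). UNC5 transcripts summed to 106.4 to 107.5 FPKM in the knockdown and 72.4 to 75.2 FPKM in the control, but the order turned under equal-sum scaling, to 0.780 of the control sum. DCC stood at 0.0342, 0.0345 and 0.0316 FPKM across the knockdown libraries, against 1.79, 1.70 and 1.63 FPKM across the control libraries. Its mean over the 6 libraries was under the filter, so it has no test, but the groups did not overlap and the knockdown mean was 1.96% of the control mean.

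The netrin ligands were low in both arms. The 3 that passed the filter rose, where 30.5% of all genes tested did so. Under equal-sum scaling NTN4 kept its call while NTN3 and NTNG2 did not. NTN4, a netrin of basement membranes, stood at 2.74, 3.08 and 3.07 FPKM across the knockdown libraries, against 0.583, 0.570 and 0.651 FPKM across the control libraries (log2 difference 1.31, SE 0.085, limma adjusted p = 1.98e-06). NTN3 rose by 0.59, with 2.04 ± 0.282 FPKM in the knockdown and 1.02 ± 0.232 FPKM in the control (SD, n = 3 each). NTNG2, a lipid-anchored netrin of synapses, rose by 0.55, with 2.00 ± 0.334 FPKM in the knockdown and 1.05 ± 0.133 FPKM in the control. NTN1, the classical ligand of DCC and UNC5, was under the filter at 0.494, 0.401 and 0.430 FPKM in the knockdown and 0.156, 0.216 and 0.210 FPKM in the control. NTN5 was listed at 0 in 4 of the 6 libraries. NTNG1 overlapped between arms, at 0.847 to 1.05 FPKM in the knockdown and 0.501 to 1.09 FPKM in the control. All netrins together summed to 8.11 to 8.78 FPKM in the knockdown and 3.28 to 4.08 FPKM in the control, 2.28 times the control mean, but under equal-sum scaling the ratio was 1.22 and the ranges overlapped.

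Ephrins showed a change of leading ligand in the B class. EFNB2, known as the ephrin of arterial endothelium, stood at 4.85, 3.92 and 3.58 FPKM across the knockdown libraries, against 15.7, 15.5 and 15.5 FPKM across the control libraries (log2 difference -1.70, SE 0.089, limma adjusted p = 4.90e-07). EFNB3, a midline ephrin of the spinal cord, stood at 16.8, 19.1 and 16.2 FPKM across the knockdown libraries, against 8.92, 9.14 and 9.17 FPKM across the control libraries, a rise of 0.86 (SE 0.067, limma adjusted p = 6.26e-06) that was not called under equal-sum scaling. EFNB1 fell by 0.47, with 2.68 ± 0.0634 FPKM in the knockdown and 4.11 ± 0.124 FPKM in the control (SD, n = 3 each, limma adjusted p = 3.03e-04). EFNB3 held 68.8% to 74.5% of ephrin-B FPKM in the knockdown and 31.2% to 31.8% in the control. EFNB2 held 15.3% to 19.9% of it in the knockdown and 53.7% to 54.8% in the control.

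The ephrin-A ligands moved less. EFNA5, a repellent cue of topographic maps, stood at 7.38, 7.50 and 8.06 FPKM across the knockdown libraries, against 13.9, 14.2 and 14.0 FPKM across the control libraries, a fall of 0.80 (SE 0.055, limma adjusted p = 2.83e-06). EFNA2 and EFNA3 rose by 0.57 and 0.33, yet were negative under equal-sum scaling, there 0.61 and 0.36 above the median of all genes. EFNA2 averaged 8.02 ± 0.330 FPKM in the knockdown and 5.10 ± 0.585 FPKM in the control (SD, n = 3 each, limma adjusted p = 2.85e-04). EFNA3 averaged 7.98 ± 1.06 FPKM in the knockdown and 6.10 ± 0.273 FPKM in the control. EFNA1 fell by 0.18, with 10.1 ± 0.509 FPKM in the knockdown and 11.5 ± 0.518 FPKM in the control, a call that did not hold under 5 of the alternatives, among them leaving out knockdown library 3, control library 1 or control library 2. EFNA4 averaged 10.1 ± 2.09 FPKM in the knockdown and 12.2 ± 1.42 FPKM in the control with overlapping groups, and knockdown library 2 was the lowest at 7.72 FPKM.

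Eph receptors were few at this level, 5 of 14 passing the filter. EPHA2, the Eph receptor of epithelial and mesenchymal cells (chromosome 1, 16124337 to 16156087, minus strand), stood at 5.31, 5.25 and 5.57 FPKM across the knockdown libraries, against 22.0, 19.8 and 21.7 FPKM across the control libraries, a log2 difference of -1.80 (SE 0.060, limma adjusted p = 3.08e-08). EPHA6 (chromosome 3, 96814581 to 97752460, plus strand), an Eph receptor of neurons, stood at 4.59, 3.43 and 4.13 FPKM across the knockdown libraries, against 0.644, 0.781 and 0.692 FPKM across the control libraries, a log2 difference of 1.56 (SE 0.104, limma adjusted p = 2.27e-06). EPHA2 thus held 48.6% to 51.7% of EPHA FPKM in the knockdown and 94.3% to 95.5% in the control, and EPHA6 held 33.3% to 42.0% in the knockdown and 2.79% to 3.73% in the control. Other A-class members were low. EPHA1 stood at 0.0274, 0.0731 and 0.0203 FPKM in the knockdown, below the 0.191, 0.219 and 0.159 FPKM in the control. Its exons overlap ZYX on the opposite strand, listed at 18.0 FPKM in the knockdown and 137 FPKM in the control. How reads were divided between them is uncertain. EPHA8 and EPHA10 stood above their control values. EPHA8 stood at 0.527, 0.911 and 0.638 FPKM in the knockdown and 0.112, 0.164 and 0.144 FPKM in the control, and EPHA10, whose kinase domain is inactive, at 0.469, 0.645 and 0.419 FPKM in the knockdown and 0.111, 0.0352 and 0.0268 FPKM in the control. EPHA3, EPHA4, EPHA5 and EPHA7 were each listed at 0 in all 6 libraries.

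In the B class EPHB4, the venous receptor of ephrin-B2, fell by 0.52, with 10.8, 11.6 and 11.0 FPKM across the knockdown libraries and 16.0, 16.0 and 17.2 FPKM across the control libraries (SE 0.055, limma adjusted p = 4.68e-05). EPHB3 rose by 0.75, with 3.38, 3.65 and 3.00 FPKM across the knockdown libraries and 1.53, 1.29 and 1.97 FPKM across the control libraries (SE 0.113, limma adjusted p = 4.12e-04), a call that was not made under equal-sum scaling. EPHB2 was not called, at 4.67 ± 0.276 FPKM in the knockdown and 4.72 ± 0.302 FPKM in the control, and its groups overlapped. EPHB6, which lacks kinase activity, was under the filter, at 0.0228, 0.0608 and 0.0202 FPKM across the knockdown libraries, against 1.50, 1.16 and 1.57 FPKM across the control libraries. EPHB1 was likewise low, at 0.116, 0.103 and 0.185 FPKM in the knockdown and 1.07, 1.27 and 1.08 FPKM in the control. The knockdown values of both lay wholly below the control values, at 2.46% and 11.8% of the control mean.

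**Figure D3:**
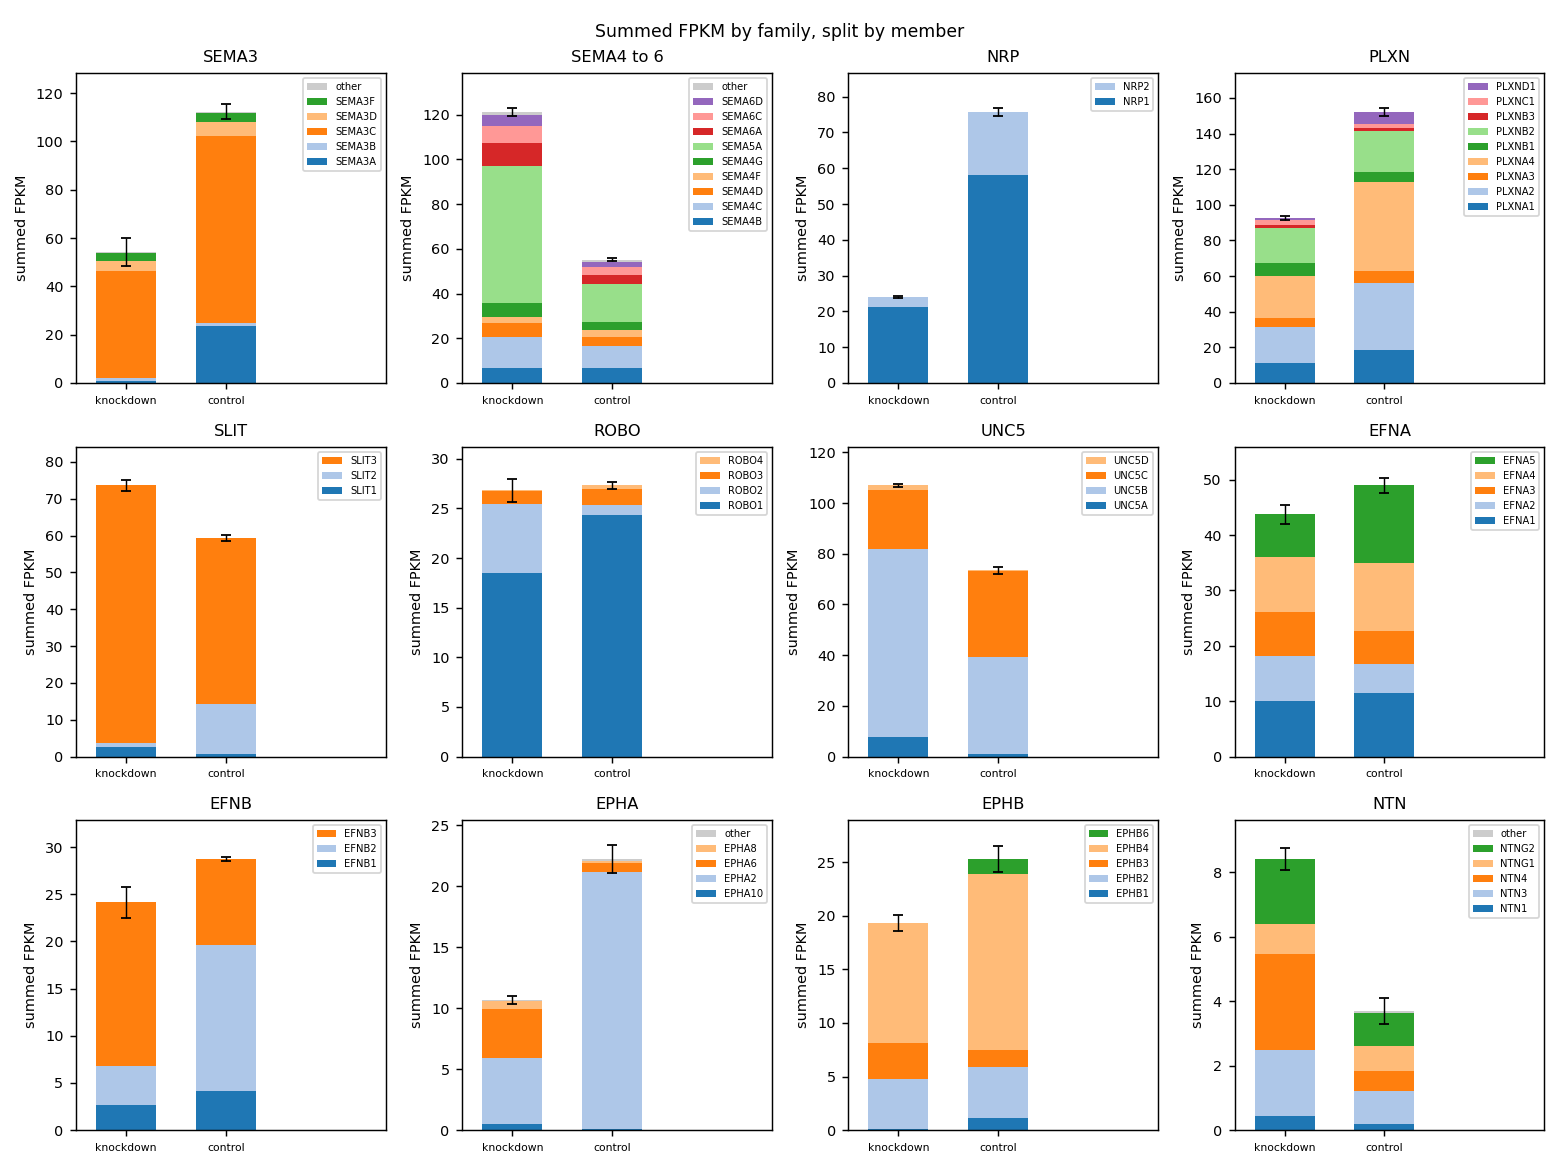
Summed FPKM of 12 guidance gene groups (vertical axis, from 0; scales differ between panels), with the knockdown mean left of the control mean, coloured by member; error bars are the SD of the summed FPKM over 3 libraries. Mean ROBO sums were 26.8 FPKM in the knockdown and 27.3 FPKM in the control on the deposited scale, with different shares of ROBO1 and ROBO2, SEMA3, NRP and EPHA sums were lower in the knockdown, and the SEMA4 to 6, UNC5 and NTN sums were higher on the deposited scale, whereas under equal-sum scaling the UNC5 and ROBO sums were lower in the knockdown and the NTN ranges overlapped.

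Promoters are shown for the 3 largest falls and 3 largest rises that have an entry in RefSeq's promoter table, because the study's title names R-loops, which are known to form at CpG-rich start sites, and a mark of modified cytosine; neither was measured in these libraries. Of the 71 genes 60 matched by symbol, and SEMA3A was not among them. Each sequence is the 250 bases before the RefSeq start on GRCh38.p14, read on the gene's strand, and capitals mark CpG dinucleotides. Whether these cells use that start was not measured. The ROBO2 and NRP2 stretches lie inside the gene spans given above, so their RefSeq starts are not the outermost GENCODE starts. The UNC5A and EPHA2 stretches run partly into their spans. The SLIT2 stretch ends before its span without adjoining it.
SLIT2 (chr4:20251655-20251904, plus strand): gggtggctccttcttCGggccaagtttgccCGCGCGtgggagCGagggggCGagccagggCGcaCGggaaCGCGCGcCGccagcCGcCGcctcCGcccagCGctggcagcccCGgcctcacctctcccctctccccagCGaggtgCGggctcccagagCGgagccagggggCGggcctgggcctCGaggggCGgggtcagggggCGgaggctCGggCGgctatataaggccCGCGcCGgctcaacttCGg
NRP2 (chr2:205682251-205682500, plus strand): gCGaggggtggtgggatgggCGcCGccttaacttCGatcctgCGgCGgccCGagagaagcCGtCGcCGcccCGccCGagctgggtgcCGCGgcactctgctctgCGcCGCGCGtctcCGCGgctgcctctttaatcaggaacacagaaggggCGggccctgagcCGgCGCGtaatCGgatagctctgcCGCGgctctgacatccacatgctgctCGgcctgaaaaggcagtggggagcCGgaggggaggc
EPHA2 (chr1:16156070-16156319, minus strand): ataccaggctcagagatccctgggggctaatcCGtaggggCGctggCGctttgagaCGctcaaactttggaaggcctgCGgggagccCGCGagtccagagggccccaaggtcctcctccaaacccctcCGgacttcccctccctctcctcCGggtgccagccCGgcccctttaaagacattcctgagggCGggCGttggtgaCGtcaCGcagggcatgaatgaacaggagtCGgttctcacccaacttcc
UNC5A (chr5:176810309-176810558, plus strand): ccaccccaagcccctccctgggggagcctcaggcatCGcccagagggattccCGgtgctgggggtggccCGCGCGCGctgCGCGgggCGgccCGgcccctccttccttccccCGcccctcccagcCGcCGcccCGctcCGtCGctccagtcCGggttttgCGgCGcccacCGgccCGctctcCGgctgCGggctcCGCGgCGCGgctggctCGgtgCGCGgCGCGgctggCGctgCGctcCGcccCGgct
ROBO2 (chr3:76310630-76310879, plus strand): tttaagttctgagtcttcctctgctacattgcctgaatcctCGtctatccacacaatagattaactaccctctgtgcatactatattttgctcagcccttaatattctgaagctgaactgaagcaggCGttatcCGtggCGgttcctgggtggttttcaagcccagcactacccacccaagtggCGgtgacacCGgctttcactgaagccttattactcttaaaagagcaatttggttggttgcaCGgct
SEMA5A (chr5:9546076-9546325, minus strand): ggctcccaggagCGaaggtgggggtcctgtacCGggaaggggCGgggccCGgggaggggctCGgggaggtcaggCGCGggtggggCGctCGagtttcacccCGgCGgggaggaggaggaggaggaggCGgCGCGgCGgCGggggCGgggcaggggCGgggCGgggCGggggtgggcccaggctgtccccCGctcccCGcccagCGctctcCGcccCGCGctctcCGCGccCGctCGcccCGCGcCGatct
There are 30 CpG dinucleotides in SLIT2, 29 in NRP2, 15 in EPHA2, 36 in UNC5A, 33 in SEMA5A and 7 in ROBO2, whose GC content is 46.8%. The shown promoters of fallen and of risen genes thus both include CpG-dense ones. Over the 18 fallen and 16 risen genes with an entry, the median ratio of observed to expected CpG was 0.822 and 0.755, beside 0.558 over 35116 promoters of the same length. The median GC content was 71.2% for the fallen and 69.2% for the risen genes, beside 58% over all. For the 10 genes not called and 16 not tested with an entry, the median ratio was 0.615 and 0.595. Their median GC content was 66.2% and 59.8%. The 35116 promoters were not selected for expression. All of these values are descriptions of the reference sequence, with no test.

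Genes that work with the guidance receptors were taken from a list made with earlier results of these data known. It held 98 coreceptors, other cues and signalling proteins, of which 84 passed the filter. Of these, 26 rose (31.0%, beside 30.5% of all genes tested), 46 fell (54.8%, beside 35.9%) and 12 were not called, with a median of -0.26. MICAL2, an oxidoreductase of actin related to the plexin effector MICAL1, stood at 1.48, 1.28 and 1.07 FPKM across the knockdown libraries, against 38.6, 39.8 and 37.6 FPKM across the control libraries (log2 difference -4.13, limma adjusted p = 8.79e-10). FLRT2, a membrane protein that binds UNC5 receptors, was listed at 0 in all 3 knockdown libraries, against 7.15, 7.26 and 6.77 FPKM across the control libraries. The adhesion molecule ALCAM, at 29.2 ± 1.39 FPKM in the knockdown and 177 ± 2.11 FPKM in the control, the receptor kinase MET, a partner of B-class plexins, at 1.84 ± 0.235 FPKM in the knockdown and 9.76 ± 0.129 FPKM in the control, and RRAS, a GTPase that plexins inactivate, at 4.80 ± 0.518 FPKM in the knockdown and 20.4 ± 0.553 FPKM in the control, also fell (SD, n = 3 each). RGS3, a regulator acting downstream of ephrin-B, fell by 2.14. FLRT1 and FLRT3, relatives of FLRT2, went the other way and rose by 1.27 and 0.77. Under equal-sum scaling FLRT1 kept its call and FLRT3 did not.

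The adhesion molecule CNTN1 rose by 2.95. L1CAM, a coreceptor of neuropilin-1 for SEMA3A, rose by 0.84, with 13.5, 15.6 and 13.3 FPKM across the knockdown libraries and 7.48, 7.39 and 7.40 FPKM across the control libraries. NEO1, the DCC relative that binds netrins, rose by 0.44, with 27.1, 26.5 and 27.6 FPKM across the knockdown libraries and 19.6, 19.5 and 19.7 FPKM across the control libraries. Under equal-sum scaling L1CAM was not called and NEO1 was called lower. DPYSL3 was among the largest changes, with 26.0 ± 0.410 FPKM in the knockdown and 85.3 ± 1.36 FPKM in the control. It belongs to the collapsin response mediator proteins, which carry the SEMA3A signal to microtubules, and the rest of that family was looked at after its values were seen. CRMP1, DPYSL2, DPYSL4 and DPYSL5 all rose on the deposited scale, by 0.92, 0.11, 0.50 and 1.27, but under equal-sum scaling DPYSL5 alone kept its call, CRMP1 was not called, and DPYSL2 and DPYSL4 were called lower.

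Overlapping annotation limits some values. In GENCODE v29 19 of the 52 tested genes share exon bases with another gene, and for 10 of them that gene is also in the table. The kit kept strand but whether the counting used it is not given in the sources used here. SEMA6A overlaps the antisense gene SEMA6A-AS1, listed at 2.96 FPKM in the knockdown and 1.17 FPKM in the control, SEMA4G overlaps MRPL43 (31.4 FPKM in the knockdown, 35.9 FPKM in the control), and EPHB4, PLXNA3 and PLXNC1 overlap SLC12A9, LAGE3 and CEP83. Reads of these pairs cannot be told apart here.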

How the data were processed

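The values are gene-level FPKM of each library, computed and deposited by the authors. The submitters' processing notes name TopHat2 2.1.0, SAMtools, Cuffdiff 2.2.1 and hg38, without saying what each did. Libraries came from poly(A) RNA with a strand-keeping kit (labels' protocols). Neither the gene annotation nor the use of strand in counting is stated there. Columns were matched to samples by title.

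The test was limma 3.58.1 (R 4.3.3, trended variance, two-sided) on log2(FPKM + 1), with Benjamini-Hochberg adjustment over the 13434 genes averaging at least 1 FPKM, and it was tested on simulated data. FPKM holds no counts, so counting error has no interval. The permutation test used scipy 1.17.1. Members and lists were chosen with earlier results of these data known. Every tested member is named. Values of EPHA1, NTN5, SEMA3G and SEMA6B, low in every library, were added after they were seen. Standard errors and adjusted p go mainly to the largest called changes with groups that do not overlap, up to 5 in each of 6 families, SLIT with ROBO and netrins with DCC and UNC5 being 1 family each. Partner genes named are the 8 largest called changes and coreceptors. Relatives of DPYSL3 and FLRT2 were added after values were seen. The values of 1 marker gene are not reported here. Alternatives were other pseudocounts, filters, scalings, models, a replicate block and leaving out each library. Gene coordinates are 1-based, GENCODE v29, GRCh38 (hg38).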

Additional observations from a re-analysis of the deposited data

How the results depend on the processing

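The fall of TARDBP kept its call in all 19 alternatives (log2 fold change -2.06 to -0.97). Of the 42 guidance genes called, 27 kept direction and call wherever they could be fitted. Outside the rescaling of columns to equal sums the calls lost were EFNA1 and PLXNB2. Leaving out each library gave 22 to 23 guidance genes higher and 19 to 21 lower. Counts moved by over 1.5 times in 2 settings. A minimum mean of 5 FPKM tests fewer genes and gave 11 guidance genes and 16 partner genes higher. Columns rescaled to equal sums gave 9 guidance genes higher and 34 lower, and 5 partner genes higher. That rescaling moved the median of all genes to -0.82, and made 4.27% of all calls higher against 45.9% on the deposited scale. Equal sums without 6 small RNAs made 42.3% of them higher, and quantile normalization 58.8%. The median of the guidance genes, 0.0046 as reported, was -0.013 at a minimum mean of 0.1 FPKM, -0.37 at 5 FPKM, -0.012 with no filter, -0.69 with equal sums and -0.019 with equal sums without 6 small RNAs. Leaving out each library gave -0.041 to 0.075. It has no stable sign.

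With equal sums EFNA2, EFNA3, PLXNB1, PLXNC1, SEMA3B, SEMA4C, SEMA4D, SEMA4F, SEMA4G, SEMA7A and SLIT3 turned negative, at -0.21, -0.46, -0.44, -0.53, -0.17, -0.36, -0.23, -0.66, -0.22, -0.41 and -0.26. Genes near 0 changed sign elsewhere without a call. EPHB2 was 0.024 with quantile normalization, and leaving out each library gave -0.058 to 0.024. SEMA3F was 0.015 with quantile normalization, and leaving out each library gave -0.073 to 0.059. SEMA4F was -0.0017 with equal sums without 6 small RNAs, and leaving out each library gave -0.061 to 0.10.

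Libraries with the same number did not deviate together (correlations of deviations -0.019, -0.18 and -0.091), and the main test used no pairing. Deviations from means of only 3 libraries cannot show whether libraries with the same number were handled together. With the replicate block 23 guidance genes were higher and 20 lower, EFNA1 was not called (limma adjusted p = 0.0632), and EFNA4 and SEMA3B were called (0.0479 and 0.0460). Without knockdown library 1 PLXNB3 and SEMA3B were called, without knockdown library 2 ROBO3 was, and without knockdown library 3 EFNA4 was (limma adjusted p 0.0377, 0.00788, 0.0265 and 0.0407). The causes of these changes were not tested.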

Other observations

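Genes named after guidance genes but left out by the hyphen were mostly low. UNC5B-AS1 stood at 4.83, 8.49 and 4.27 FPKM across the knockdown libraries, against 3.15, 3.46 and 4.62 FPKM across the control libraries, with overlapping groups. SLIT2-IT1, an intronic transcript of SLIT2, was listed at 0 across the 3 knockdown libraries, against 0.358, 0.563 and 0.630 FPKM across the control libraries, the same order as SLIT2. EPHA1-AS1 was listed at 0, 0.0240 and 0.0132 FPKM across the knockdown libraries, against 0.485, 0.350 and 0.518 FPKM across the control libraries.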
